A study of Mus musculus with 4 samples.

Results

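The genes described here encode the nuclear subunits of the mitochondrial respiratory chain, complexes I to V, as measured by RNA-seq in sarcomas of mice with and without arsenic trioxide (ATO). Members were the genes whose symbols begin with Ndufa, Ndufb, Ndufc, Ndufs or Ndufv and a digit, with Uqcr, Cox4 to Cox8 or Atp5, or that are Sdha, Sdhb, Sdhc, Sdhd or Cyc1. The deposited table lists 56691 genes. Of these, 106 matched, and 14 pseudogene entries (symbols with -ps), the muscle and brown fat isoform genes Cox7a1 and Cox8b, and 5 genes with fewer than 10 counts over the 4 libraries were left out. The remaining 85 genes comprised 38 of complex I, 4 of complex II, 9 of complex III, 17 of complex IV and 17 of complex V, with Ndufa4 and Ndufa4l2 placed in complex IV, to which their proteins are assigned by composition. The genes left out for low counts were Cox8c, Cox7b2, Ndufb11b and Ndufa11b, listed at 0 in all 4 libraries, and a second identifier of Atp5o with 2 counts in total.

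All 4 libraries were bulk RNA of sarcoma tissue from W/+ mice, which carry p53R282W/+ in the sample labels and p53-R279W in the study's text, the mouse residue that corresponds to the human one. The sarcomas ATO-1 and ATO-2 came from mice given 35 mg ATO per litre of drinking water from day 90 until death, and PBS-1 and PBS-2 from mice labelled PBS. The age of each mouse at sampling is not given in the labels. Sarcomas of these mice include angiosarcomas, soft tissue sarcomas and osteosarcomas, and the labels do not say which kind each library represents. The labels of all 4 samples also hold a culture protocol (dexamethasone, then insulin, with isobutylmethylxanthine), a mixture commonly used to turn precursor cells into fat cells, while the study describes tissue taken from mice. With n = 2 per group and no statement on whether a replicate number links mice, p-values measure only the spread between these libraries.

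The respiratory chain sits in the inner mitochondrial membrane. Complexes I and II pass electrons from NADH and succinate to coenzyme Q, complex III passes them to cytochrome c, and complex IV reduces oxygen, while complex V, the ATP synthase, uses the proton gradient that complexes I, III and IV build. Most subunits are encoded in the nucleus and imported, a smaller core of complexes I, III, IV and V is encoded by mitochondrial DNA, and complex II is nuclear throughout. Brown fat, heart and skeletal muscle are known for high levels of these genes, and several complex IV subunits have isoform genes used in muscle, in brown fat or in low oxygen.

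The libraries held between 15259695 and 18134000 counts. Counts from mitochondrial genes made up 14.7% in ATO-2 and 1.98% to 2.59% in the other 3 libraries, so ATO-2 stood apart before any subunit gene was considered. The mesenchymal list (Col1a1, Col1a2, Col3a1, Vim, Pdgfra, Pdgfrb, Thy1) had counts in all 4 libraries, with summed FPKM of 3983 in ATO-1, 1200.1 in ATO-2, 4976 in PBS-1 and 1584 in PBS-2. Col1a1 and Col1a2 made up most of the ATO-1 sum, with 2413 and 1322. In FPKM both ATO sarcomas were below both PBS sarcomas for 3 of the 7 genes (Vim, Pdgfrb, Thy1) and above for 0. Over the 17188 genes tested these counts were 5096 and 2198. The epithelial list (Epcam, Krt8, Krt18, Cdh1) summed to between 1.05 and 17.6. FPKM is the count scaled to the exon length of the gene and to the total of the library, as the authors gave it. The sarcomas also differed in other markers. Ibsp, an osteoblast matrix gene, had FPKM of 291, 0.29, 0.30 and 0.35 in the order ATO-1, ATO-2, PBS-1 and PBS-2, and Pecam1, an endothelial gene, had 29.1, 49.3, 28.0 and 312. All 6 genes of the proliferation list (Mki67, Top2a, Cdk1, Ccnb1, Pcna, Mcm2) were lowest in ATO-2, with a summed FPKM of 134.4 in ATO-1, 30.15 in ATO-2, 124 in PBS-1 and 87.1 in PBS-2. The part of these differences in the subunit levels was not tested.

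The nuclear subunit genes together took 0.791% of all counts in ATO-1, 2.41% in ATO-2, 0.655% in PBS-1 and 0.543% in PBS-2. Both ATO sarcomas were above both PBS sarcomas, and ATO-2 was far above the other 3, which lay close together. The exact two-sided permutation test on these shares gave p = 0.333, which is the smallest p that 2 against 2 allows. In bulk tissue a share of cells rich in mitochondria and the amount of such RNA per cell cannot be told apart.

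By gene, 81 of the 83 subunit genes that passed the filter on low counts had a higher fitted level in the ATO sarcomas and 2 a lower fitted level (Cox4i2 and Ndufa4l2). Ndufs6b and Cox6c2 were not tested. The median fitted log2 fold change of the 83 was 1.70, beside -0.016 over all 17188 genes tested. No gene passed: edgeR's quasi-likelihood test with Benjamini-Hochberg adjustment called 0 of the 83 and 0% of all genes tested, the smallest adjusted p being 0.570 in edgeR. At an unadjusted p under 0.05, 18 of the 83 were higher in ATO and 0 lower, beside 5.44% higher and 3.07% lower over all genes tested. DESeq2 called 1 subunit gene, Cox6a2, beside 3.25% of genes called higher by DESeq2. In CPM, the count scaled to library size, here with TMM, the trimmed mean of M-values that edgeR uses to set libraries on a common scale, both ATO sarcomas were above both PBS sarcomas for 61 of the 83 genes, beside 19.7% of all genes tested, and below both for 0 of 83, beside 20.2%.

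ATO-2 carried most of this difference. It was the highest library for 78 of the 83 subunit genes, beside 25.5% of all genes tested, and its CPM was over 2 times that of ATO-1 for 74 of 83, beside 18.6%. The median ratio to the mean of the PBS sarcomas was 1.37 in ATO-1 and 4.99 in ATO-2, and the median ratio of ATO-2 to ATO-1 was 3.61. The PBS sarcomas were close, with a median ratio of PBS-2 to PBS-1 of 0.850. The median log2 ratio over the 4 pairs of an ATO with a PBS sarcoma ranged from 0.39 to 2.42 (SD 1.05), so the spread between the ATO sarcomas was of the size of the difference between groups.

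With ATO-2 left out, the median log2 fold change of the subunit genes was 0.46, beside -0.09 over all genes. In that fit 72 of 83 were higher, beside 8695 of the 18998 genes tested. ATO-1 alone was above both PBS sarcomas for 62 of the 83 genes, beside 34.5% of all genes tested, and below both for 6. With ATO-1 left out instead, the median was 2.30, beside -0.16 over all genes, and 82 of 85 were higher, beside 8203 of the 18727 genes tested. A lone ATO sarcoma is assumed in these fits to vary like the PBS pair.

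The scale mattered less than the library. With total counts in place of TMM factors the median over all genes moved to -0.28 and that of the subunit genes to 1.35, 78 of 83 were higher, and 50 of 83 had both ATO above both PBS sarcomas, beside 12.9% of all genes on that scale.

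**Figure D1:**
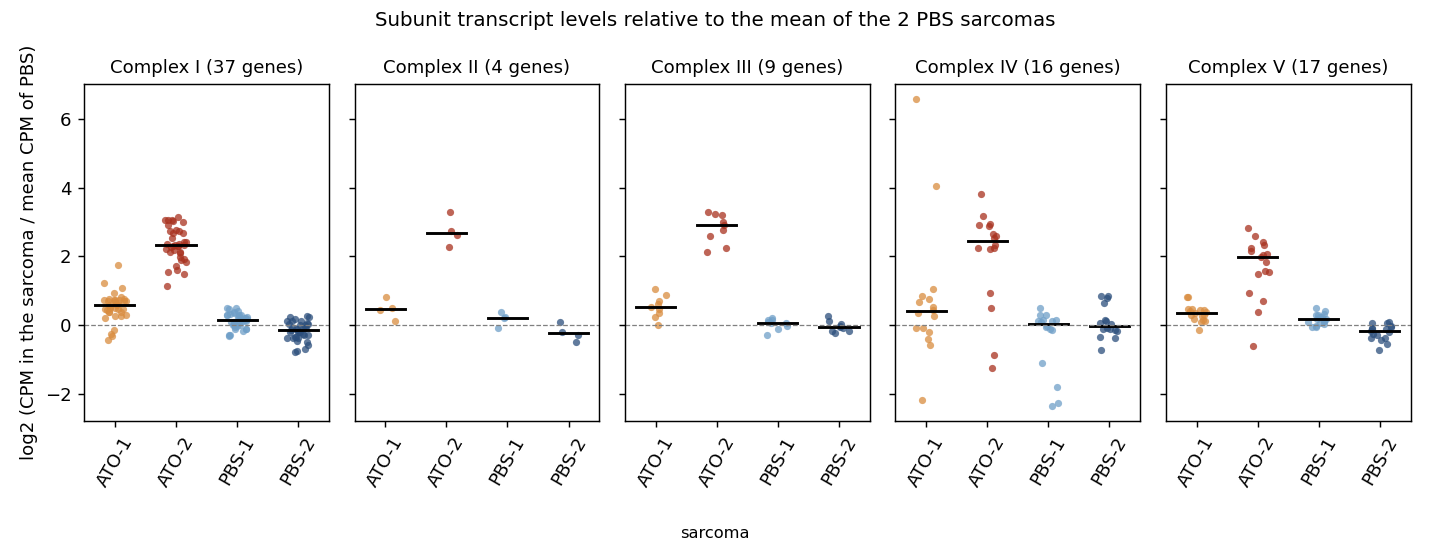
Each point is 1 of the 83 tested subunit genes in 1 sarcoma, as the log2 ratio of its TMM-scaled CPM to the mean CPM of the PBS sarcomas (vertical axis), by complex (panels) and sarcoma (horizontal axis), with the median as a bar. ATO-2 stands above the other 3 sarcomas in every panel, with a median ratio of 4.99 on the linear scale over all genes, and complexes IV and V hold the points that stay low in ATO-2.

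Promoters are shown for 5 subunit genes, since genes of all 5 complexes had their highest level in ATO-2 with few exceptions, and the nuclear respiratory factor NRF1 and ETS-type factors such as GABP are known to bind many subunit promoters. Sdha and Sdhd of complex II, Ndufb4 of complex I and Cox6a1 of complex IV are shown because their windows held 2 or more of the matches described below, and all 4 were highest in ATO-2. Atp5g1 of complex V is shown because it was lowest there. Each line gives the 120 bases before the start site given by RefSeq (GRCm38.p6), on the gene's own strand, which is the minus strand for all 5. Capitals mark matches on either strand to the NRF1 letters, GCGCA and GCGC with any base between, or to the ETS letters, CCGGAAG.
Sdha, chr13:74350241-74350360: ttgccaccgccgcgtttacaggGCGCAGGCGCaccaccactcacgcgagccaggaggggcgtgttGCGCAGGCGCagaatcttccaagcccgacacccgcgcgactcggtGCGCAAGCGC
Sdhd, chr9:50603850-50603969: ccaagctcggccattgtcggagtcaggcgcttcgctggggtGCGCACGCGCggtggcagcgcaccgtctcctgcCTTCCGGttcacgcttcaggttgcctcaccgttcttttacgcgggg
Ndufb4, chr16:37654369-37654488: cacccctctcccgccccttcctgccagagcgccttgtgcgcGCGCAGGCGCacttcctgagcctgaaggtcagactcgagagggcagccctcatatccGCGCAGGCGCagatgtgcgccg
Cox6a1, chr5:115348959-115349078: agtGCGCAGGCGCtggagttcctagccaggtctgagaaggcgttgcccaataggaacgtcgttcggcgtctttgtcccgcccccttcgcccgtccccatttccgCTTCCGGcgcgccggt
Atp5g1, chr11:96075632-96075751: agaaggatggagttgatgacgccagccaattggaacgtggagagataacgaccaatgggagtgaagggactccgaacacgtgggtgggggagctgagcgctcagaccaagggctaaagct
The Sdha window held the NRF1 letters at 3 places and the Ndufb4 window at 2, the Sdhd and Cox6a1 windows held the NRF1 and the ETS letters once each, and the Atp5g1 window held neither. RefSeq windows were found for 66 of the 85 genes. In the 250 bases before the start site, 12 of these 66 (18.2%) held the NRF1 letters, beside 7.43% of the promoters of tested genes and 3.86% of all promoters. The ETS letters stood in 11 of 66 (16.7%), beside 12.6% of tested genes and 7.05% of all. The letters AAGATGGC (YY1) stood in 0 of 66, beside 1.95% of tested genes, and TCAAGGTCA (the estrogen-related receptor element) in 1 of 66, beside 0.231%. Any of the NRF1, ETS or YY1 letters stood in 20 of 66 (30.3%), beside 20.3% of tested genes, so most subunit windows held none. Atp5g2, a complex V gene with a log2 fold change of 0.14, held the NRF1 letters once. Whether the letters go with the level of a gene was not tested. A match is a description of the letters in a window, not a binding site.

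Complex I, the NADH dehydrogenase, had 37 tested genes, all of them with a higher fitted level in ATO (median log2 fold change 1.72, from 0.62 to 2.51). Of these, 10 had an unadjusted p under 0.05 in edgeR, beside 5.44% of all genes tested that were higher in ATO. In CPM both ATO sarcomas were above both PBS sarcomas for 31 of the 37, beside 19.7% of all genes tested. ATO-2 was the highest library for all 37, beside 25.5%. FPKM values below are given in the order ATO-1, ATO-2, PBS-1 and PBS-2.

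Of the core genes, which carry the flavin and the iron-sulfur clusters, Ndufv1, the subunit that binds NADH, had FPKM of 45.5, 184, 38.5 and 21.2. Ndufv2, an iron-sulfur subunit beside it, had 44.7, 119.7, 29.5 and 31.1, and Ndufs1, the largest subunit of the complex with several iron-sulfur clusters, had 14.8, 48.0, 9.5 and 7.43. In all 3 of these genes of the NADH-oxidising module both ATO sarcomas were above both PBS sarcomas, and ATO-2 held the top value. Their log2 fold changes were 2.31 ± 0.92 (SE) for Ndufv1, 1.79 ± 0.68 for Ndufv2 and 2.25 ± 0.78 for Ndufs1.

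Of the core genes around the coenzyme Q site, Ndufs7, which holds the last iron-sulfur cluster of the chain, had FPKM of 30.2, 70.6, 14.7 and 13.6. It had the smallest unadjusted p of the complex, 0.019 in edgeR, with a log2 fold change of 2.17 ± 0.62 (SE), and ATO-1 was itself about as far above the PBS sarcomas as ATO-2 was above ATO-1. Ndufs3 of the same module had 42.2, 96.5, 28.4 and 31.2, with groups that did not overlap. Ndufs8, an iron-sulfur subunit of the same module, had 26.0, 112, 46.7 and 30.3. Here ATO-1 was the lowest of the 4 sarcomas, and the log2 fold change of 1.22 ± 0.86 (SE) rested on ATO-2.

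The accessory subunits, which surround the core and are needed for assembly and stability, were highest in ATO-2 in each case, while ATO-1 stood differently among them. Ndufb8 of the membrane arm had FPKM of 23.9, 115, 21.1 and 13.5, and Ndufb6 of the same arm had 51.2, 204, 33.0 and 33.8. Ndufb10 had 51.2, 124, 35.3 and 31.8 and Ndufb11 had 66.6, 163, 40.5 and 48.0. In these 4 genes of the membrane arm ATO-2 was the highest library, between 2.98 and 5.89 times ATO-1 in CPM, and ATO-1 was above both PBS sarcomas. Ndufa5 had 24.9, 64.6, 13.9 and 11.9 and Ndufa3 had 37.9, 93.4, 20.3 and 29.4. Ndufb9, an abundant gene of the complex by mean FPKM, had 80.6, 237, 63.0 and 65.4, a case in which ATO-1 was only slightly above the PBS values. Ndufb4 had 18.2, 48.8, 12.3 and 10.3, and its near-copy Ndufb4c had the largest log2 fold change of the complex, 2.51 ± 0.95 (SE), at low FPKM of 2.26, 4.54, 1.03 and 0.43. Reads of such copies may be divided between them by the counting, so the 2 values are uncertain.

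The smallest differences in complex I were in Ndufa7 and Ndufa8. Ndufa7 had FPKM of 25.0, 49.3, 37.4 and 23.3, with PBS-1 between the ATO sarcomas, and a log2 fold change of 0.62 ± 0.58 (SE). Ndufa8 had 59.2, 174, 69.96 and 84.7, with ATO-1 the lowest library. In both genes the groups overlapped, with an unadjusted p in edgeR of 0.34 and 0.23. The groups also overlapped in Ndufc1, with FPKM of 13.3, 48.2, 17.8 and 7.56, in Ndufa2, with 66.8, 130.3, 73.3 and 32.8, and in Ndufv3, with 11.8, 51.4, 17.0 and 14.9. In Ndufv3 ATO-1 was the lowest library. The log2 fold changes of the genes of the complex not named above lay between 1.03 (Ndufb1) and 2.27 (Ndufa1), apart from Ndufs6b, which was not tested and had FPKM of 1.58, 3.20, 0.49 and 0.16.

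Complex II, succinate dehydrogenase, is also an enzyme of the tricarboxylic acid cycle. Sdha, its flavoprotein at chr13:74322254-74350280 (GRCm38), had FPKM of 76.0, 345, 53.4 and 40.9. The value in ATO-2 was 4.54 times that in ATO-1 in FPKM, and ATO-1 was above both PBS sarcomas. Sdhb, the iron-sulfur subunit, had 36.0, 181, 42.2 and 30.0, so that ATO-1 lay between the PBS sarcomas. Sdhc and Sdhd, which anchor the enzyme in the membrane, had 34.7, 99.4, 35.9 and 19.6 and 79.1, 281, 57.0 and 64.9. Sdhc was above both PBS sarcomas in ATO-1 in TMM-scaled CPM and not in FPKM. The median log2 fold change of the 4 genes was 1.94, from 1.62 ± 0.77 (SE) in Sdhc to 2.53 ± 0.98 in Sdha, and 0 of 4 had an unadjusted p under 0.05 in edgeR or an adjusted p under 0.05 in DESeq2.

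Complex III, the cytochrome bc1 complex, had the highest median log2 fold change of the 5 complexes, 2.15. In CPM 8 of its 9 genes had both ATO above both PBS sarcomas, beside 19.7% of all genes tested. Uqcrfs1, the Rieske iron-sulfur protein, had FPKM of 95.6, 372, 58.1 and 43.1. Its log2 fold change was 2.57 ± 0.88 (SE, unadjusted p = 0.035 in edgeR). Uqcrc2, a core protein, had 52.8, 217, 25.3 and 37.5. The small subunits Uqcr11 and Uqcrb had 44.0, 224, 30.7 and 32.9 and 77.0, 267, 57.9 and 46.8. In each of these 4 genes ATO-2 was over 4 times ATO-1 in CPM, and ATO-1 was above both PBS sarcomas. The smallest log2 fold changes of the complex were those of Uqcr10 and Uqcrh. Uqcr10 had 114, 347, 97.4 and 117, where ATO-1 was below PBS-2 in FPKM. Uqcrh, the hinge protein that contacts cytochrome c1, had 86.8, 265, 82.6 and 67.5. Cyc1, cytochrome c1 itself, was the gene whose groups overlapped, with FPKM of 41.5, 204, 46.8 and 44.0. The core protein Uqcrc1 and the small subunit Uqcrq had log2 fold changes of 2.15 and 2.22.

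Complex IV, cytochrome c oxidase, held the widest range, from -1.65 to 5.77 on the log2 scale over 16 tested genes (median 1.75). In CPM 10 of the 16 had both ATO above both PBS sarcomas, beside 19.7% of all genes tested. The general subunits of the complex were highest in ATO-2. Cox4i1 had FPKM of 179, 514, 151 and 122, Cox5a had 41.2, 149, 27.7 and 25.2 and Cox7b had 64.8, 224, 34.8 and 43.7. All 3 genes had both ATO sarcomas above both PBS sarcomas. Ndufa4 had 63.6, 222, 46.2 and 20.4, with PBS-2 at the bottom. Cox5b, Cox7c and Cox6c had log2 fold changes of 1.98, 1.58 and 1.55, and Cox6c2, a near-copy of Cox6c, was not tested and had FPKM of 1.67, 8.51, 1.74 and 0.96.

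Cox6a1 and Cox4i1 had the highest mean FPKM of the complex. Cox6b1, which helps to join the monomers of the enzyme, had 135, 593, 97.9 and 119. Cox6a1 had 101, 665, 159 and 137, so ATO-1 was the lowest and ATO-2 the highest of the 4 sarcomas, at 8.05 times ATO-1 in CPM. Cox8a and Cox7a2 had a like pattern, with ATO-2 high and ATO-1 within or under the range of the PBS sarcomas. Cox8a had 103, 568, 160.4 and 102, and Cox7a2 had 40.9, 168, 51.6 and 43.3. Without ATO-2 the fitted log2 fold changes of these 3 genes turned to -0.41 for Cox6a1, -0.22 for Cox8a and -0.08 for Cox7a2.

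Cox7a2l did not follow. This relative of Cox7a2, known for joining complexes III and IV in supercomplexes, had FPKM of 83.0, 101, 94.2 and 98.2. All 4 sarcomas lay close together. Its log2 fold change was 0.23 ± 0.42 (SE), and -0.06 with total counts only, where the median of all genes was -0.28.

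**Figure D2:**
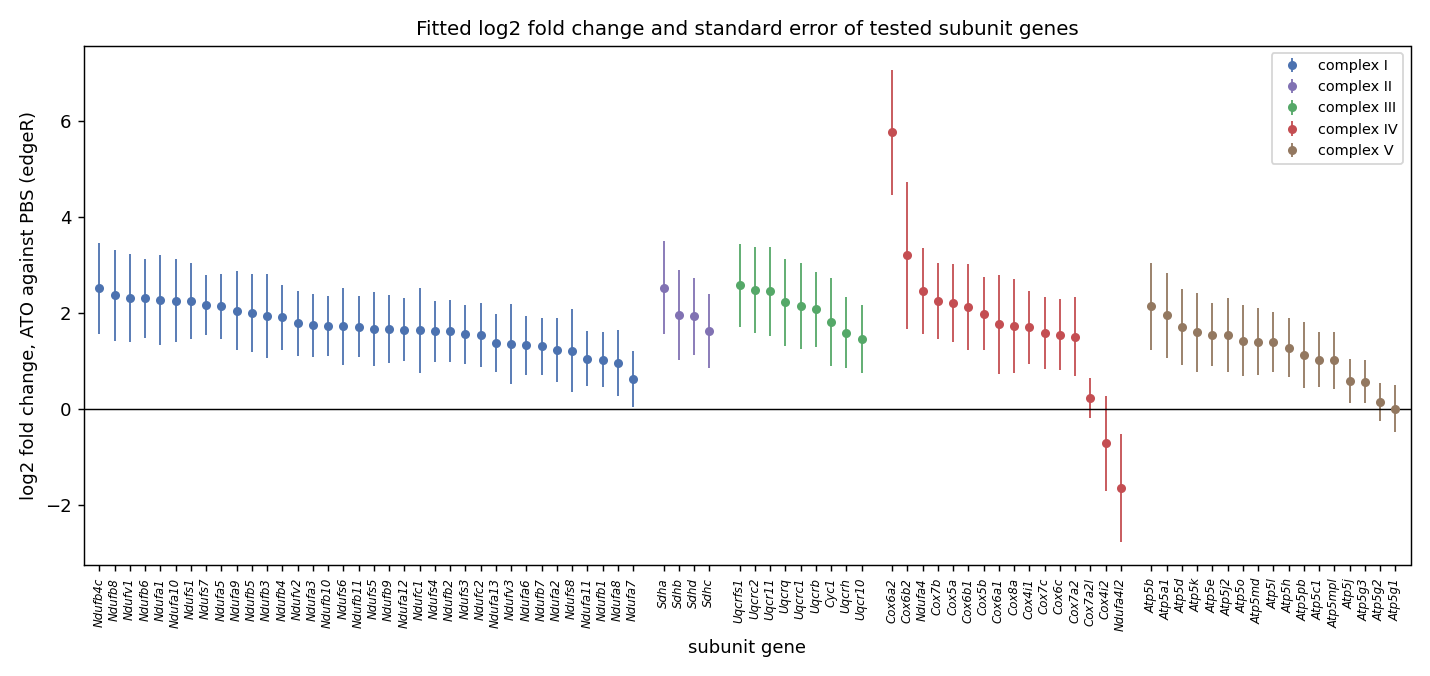
Points are the fitted log2 fold changes (edgeR, ATO against PBS, vertical axis) of 82 of the 83 tested subunit genes, ordered within each complex (colours, horizontal axis), and bars are standard errors. Values of complexes I to III lie between 0.62 and 2.57, and the 5 lowest genes are Ndufa4l2, Cox4i2, Atp5g1, Atp5g2 and Cox7a2l.

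The isoform genes Cox6a2, Cox6b2, Cox4i2 and Ndufa4l2 were highest in other libraries than their general partners. Cox6a2, the heart and skeletal muscle form of subunit 6a at chr7:128205435-128206387 (GRCm38), had FPKM of 129.6, 15.5, 0.67 and 2.29. ATO-1 was by far the highest and ATO-2 was second, so the groups did not overlap. In Cox6a1 the ATO sarcomas stood in the other order. The log2 fold change was 5.77 ± 1.31 (SE, unadjusted p = 0.0081 and adjusted p = 0.570 in edgeR), and DESeq2 gave an adjusted p of 3.02e-05. Cox6a2 made up 56.1% of the summed FPKM of Cox6a1 and Cox6a2 in ATO-1, 2.28% in ATO-2, 0.420% in PBS-1 and 1.65% in PBS-2. The log2 ratio of Cox6a2 to Cox6a1 was higher in ATO by 4.35 on average (SD over the 4 pairs of sarcomas 3.52), by 7.24 without ATO-2 and by 1.46 without ATO-1.

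Cox6b2, best known as the testis form of subunit 6b, had FPKM of 22.8, 2.13, 0.31 and 2.71. It too was highest in ATO-1, where it made up 14.5% of the summed FPKM with Cox6b1, and the PBS-2 value was above that of ATO-2 in FPKM but not in TMM-scaled CPM. Skeletal muscle genes had the same order of libraries as Cox6a2. All 10 genes of the skeletal muscle list (Acta1, Ckm, Myh1, Myh2, Myh4, Mylpf, Tnnt3, Tnnc2, Ttn, Mb) had both ATO sarcomas above both PBS sarcomas in CPM, beside 19.7% of all genes tested. In all 10 genes ATO-1 was above ATO-2. Their summed FPKM was 13791 in ATO-1, 1053 in ATO-2, 6.66 in PBS-1 and 125.8 in PBS-2, and Acta1, skeletal actin, had 3898, 428, 0.78 and 46.5. The part of muscle tissue in the Cox6a2 and Cox6b2 values was not tested.

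Cox4i2 and Ndufa4l2, forms known to be induced in low oxygen, were the subunit genes with a lower fitted level in ATO. Cox4i2 had FPKM of 6.30, 4.16, 2.91 and 17.7, and Ndufa4l2, at chr10:127514967-127517154, had 4.99, 7.90, 4.86 and 45.6. In both genes PBS-2 alone was high and PBS-1 was at or below the level of the ATO sarcomas. Ndufa4l2 made up 69.1% of its summed FPKM with Ndufa4 in PBS-2 and 3.43% to 9.52% in the other 3 sarcomas. Cox4i2 made up 12.7% of the sum with Cox4i1 in PBS-2 and 0.803% to 3.40% elsewhere. The log2 fold changes were -1.65 ± 1.13 (SE) for Ndufa4l2 and -0.72 ± 0.99 for Cox4i2. Without PBS-2 they turned to 0.70 for Ndufa4l2 and 1.08 for Cox4i2. All 5 genes of the endothelial list (Pecam1, Cdh5, Kdr, Tek, Emcn) were also highest in PBS-2, with a summed FPKM of 935.3 there and 74.2 to 150.6 in the other 3 sarcomas, and the part of endothelial cells in the 2 genes was not tested.

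**Figure D3:**
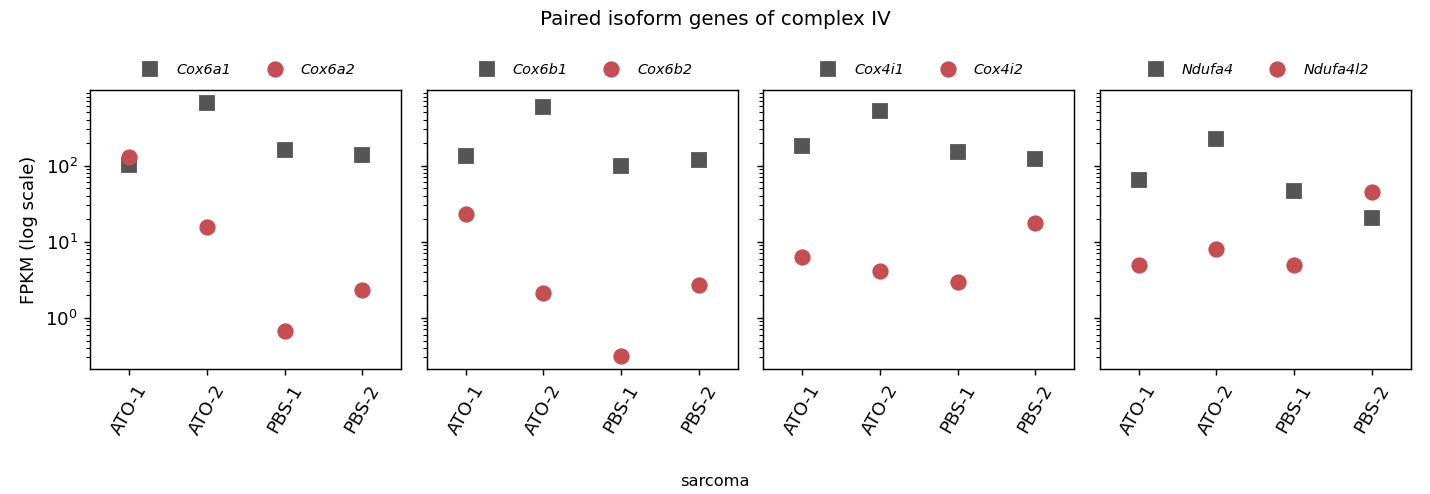
FPKM (vertical axis, log scale) of 4 general subunit genes of complex IV (squares) and their isoform genes (circles) in each sarcoma (horizontal axis). Cox6a2 reaches 129.6 in ATO-1, above Cox6a1 there, while Ndufa4l2 reaches 45.6 in PBS-2, above Ndufa4 there.

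Complex V, the ATP synthase, had the lowest median log2 fold change of the 5 complexes, 1.40 over 17 genes. In CPM 9 of the 17 had both ATO above both PBS sarcomas, beside 19.7% of all genes tested. The median ratio of ATO-2 to ATO-1 was 2.86 in CPM. No test was made of the difference between complexes. The SD of each complex's median over the 4 pairs of sarcomas was 0.99 to 1.38 on the log2 scale. All complexes were measured in the same sarcomas, so this SD is not the spread of the gap between their medians. The alpha and beta subunits of the catalytic head had the highest FPKM of the complex in ATO-2, and also in each of the other sarcomas. Atp5b, the beta subunit that makes ATP, had FPKM of 214, 696, 125 and 140.3, the highest value of all 85 genes in ATO-2. Atp5a1, the alpha subunit, had 233, 646, 191 and 98.9. Both genes had ATO-1 above both PBS sarcomas as well, with log2 fold changes of 2.14 ± 0.91 (SE) and 1.95 ± 0.88. Atp5c1, the gamma subunit of the central shaft, had 96.6, 170.2, 96.2 and 67.7, in which ATO-1 and PBS-1 were level in FPKM. The smaller head, stalk and membrane subunits, from Atp5d to Atp5j, had log2 fold changes between 0.58 (Atp5j) and 1.71 (Atp5d), with ATO-2 the highest library in each. Atp5j, a coupling subunit of the stalk, had 24.1, 34.5, 27.3 and 21.1, the narrowest range of libraries in the complex outside subunit c.

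Subunit c, the protein of the rotating ring in the membrane, is encoded by Atp5g1, Atp5g2 and Atp5g3, whose mature proteins are the same. Their fitted log2 fold changes were the 3 lowest of the complex, that of Atp5g3 being close to Atp5j. Atp5g1 had FPKM of 10.3, 4.12, 8.51 and 8.28, the only subunit gene tested with its lowest value in ATO-2. Atp5g2 had 50.6, 59.4, 65.4 and 56.9 and Atp5g3 had 72.3, 72.1, 72.3 and 46.1. In Atp5g2 the groups overlapped, and in Atp5g3 the ATO sarcomas were above the PBS sarcomas in TMM-scaled CPM and not in FPKM. The log2 fold changes were 0.0040 ± 0.49 (SE) for Atp5g1, 0.14 ± 0.40 for Atp5g2 and 0.57 ± 0.45 for Atp5g3, and with total counts only, where the median of all genes was -0.28, they were -0.21 for Atp5g1 and -0.15 for Atp5g2.

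Summed over the 3 genes, the subunit c transcripts had FPKM of 133.2 in ATO-1, 135.6 in ATO-2, 146.2 in PBS-1 and 111.3 in PBS-2. On this scale ATO-2 lay within the range of the other sarcomas. In TMM-scaled CPM, Atp5g2 and Atp5g3 were highest in ATO-2, at 122 and 192, and Atp5g1 was lowest there, at 24.8. Set against Atp5b in the same library, the sum was 0.623 in ATO-1, 0.195 in ATO-2, 1.17 in PBS-1 and 0.793 in PBS-2. ATO-2 thus had the lowest ratio of ring to catalytic transcripts, followed by ATO-1. The order of the 3 genes also differed, Atp5g3 making up 54.3% of the sum in ATO-1, 53.1% in ATO-2 and 49.5% in PBS-1, and Atp5g2 51.1% in PBS-2.

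**Figure D4:**
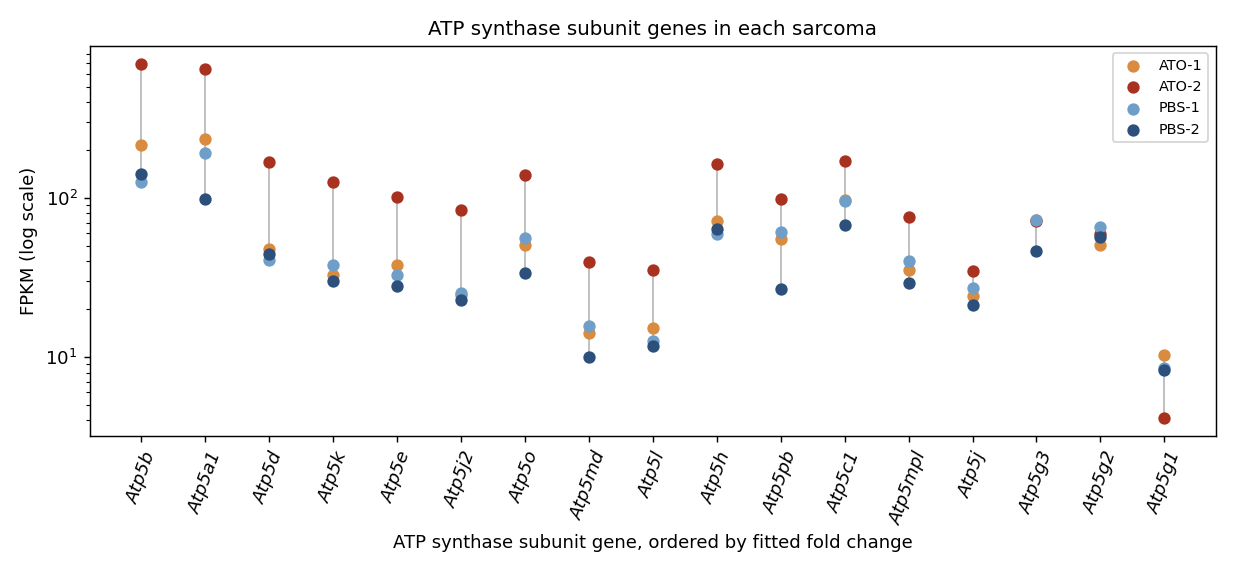
FPKM (vertical axis, log scale) of the 17 ATP synthase subunit genes, ordered by fitted fold change (horizontal axis), with each sarcoma as a coloured point and a line over the range. ATO-2 is the top point on the left, at 696.3 for Atp5b, and the bottom point for Atp5g1, at 4.12.

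Summed FPKM over all 85 genes was 4337 in ATO-1, 13423 in ATO-2, 3684 in PBS-1 and 3179.5 in PBS-2. The make-up by complex was close in ATO-1 and the PBS sarcomas and moved in ATO-2. Complex V took 20.2% of the sum in ATO-2 and 23.2% to 26.2% in the other 3 sarcomas. Complex III took 16.7% in ATO-2 and 12.5% to 14.0% elsewhere, and complex II 6.75% and 4.89% to 5.21%. Complexes I and IV took 28.7% and 27.7% in ATO-2, beside 29.9% to 30.2% and 26.0% to 27.9% elsewhere. With 1 sarcoma apart these shares allow no test between groups.

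The subunits that mitochondrial DNA encodes had the same order of libraries. All 11 tested genes of the 13 had a higher fitted level in ATO (median log2 fold change 2.56), ATO-2 was the highest library for all 11, and 0 had an unadjusted p under 0.05 in edgeR while DESeq2 called 1. That gene was mt-Nd2, a core subunit of complex I, with FPKM of 1794, 16222, 1184 and 893. The summed FPKM of the 13 genes was 4.58 times that of the nuclear subunits in ATO-1, 8.34 times in ATO-2, 4.07 times in PBS-1 and 4.53 times in PBS-2, so the mitochondrial transcripts were further up in ATO-2 than the nuclear ones.

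The tricarboxylic acid cycle enzymes, which feed the chain with NADH, had a higher fitted level in ATO for 13 of 13 genes, beside 8450 of the 17188 genes tested. The median log2 fold change was 2.55. At an unadjusted p under 0.05 in edgeR 7 of the 13 were higher, beside 5.44% of all genes tested. Idh3a, the catalytic subunit of isocitrate dehydrogenase, had FPKM of 24.7, 158, 13.0 and 10.9, and ATO-2 was the highest library for all 13 genes. Of the electron and nucleotide carriers 10 of 10 had a higher fitted level, with a median of 0.94, and the electron-transferring flavoproteins led. Etfa, which takes electrons from fatty acid oxidation, had 46.3, 301, 34.8 and 22.1, whereas the adenine nucleotide carrier Slc25a4 had its highest value in ATO-1, with 206, 127, 118 and 78.8.

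Coenzyme Q synthesis genes had a higher fitted level for 13 of 13, with a median of 1.18. In CPM both ATO were above both PBS sarcomas for 6 of 13, beside 19.7% of all genes tested. Without ATO-2 the fitted level was higher for 7 and lower for 6. Coq8a, a kinase-like protein of that pathway, had 77.0, 109, 7.20 and 1.78, a log2 fold change of 4.68 ± 0.95 (SE, unadjusted p = 0.0051 in edgeR), and both ATO sarcomas were over 10 times the higher PBS value in FPKM. Of the assembly factors of complexes I to V 43 of 47 had a higher fitted level, with a median of 0.74, and 0 had an unadjusted p under 0.05 in edgeR or passed DESeq2. Lyrm7, which inserts the Rieske protein into complex III, had 0.68, 2.24, 0.35 and 0.40 and the largest log2 fold change of that list, 2.32. The mitochondrial ribosome list, taken by symbol (Mrpl or Mrps and a digit), had the smallest difference, with a higher fitted level in 66 of 78 genes and a median of 0.35. Mrps36, listed by its symbol alone, had the largest log2 fold change of that list, 2.16, with 9.87, 51.9, 12.7 and 5.15. Whether its protein belongs to the ribosome was not tested.

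Without ATO-2 these medians were 0.57 for the mitochondrially encoded genes, 0.74 for the tricarboxylic acid cycle, 0.77 for the carriers, 0.03 for coenzyme Q synthesis, 0.07 for the assembly factors and -0.20 for the mitochondrial ribosome, beside -0.09 for all genes. The subunit genes (0.46) lay between the cycle enzymes and the ribosome in that fit, as they did with all 4 sarcomas.

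Of 17 regulators of mitochondrial biogenesis 13 had a higher fitted level (median 0.74, and 0.36 without ATO-2). At an unadjusted p under 0.05 in edgeR 4 were higher, beside 5.44% of all genes tested. Ppargc1a, which encodes the coactivator PGC-1 alpha, had FPKM of 3.21, 2.06, 0.42 and 0.19, with both ATO sarcomas over 4 times the higher PBS value. Its log2 fold change was 3.35 ± 0.68 (SE, unadjusted p = 0.0051 in edgeR), and DESeq2 gave an adjusted p of 0.00101. The others were the estrogen-related receptors Esrra, with 12.3, 22.0, 6.32 and 7.51, and Esrrg, with 0.60, 1.70, 0.15 and 0.27, and the mitochondrial transcription factor Tfb2m, with 10.9, 14.1, 6.74 and 6.85. Nrf1 and Gabpa, the factors whose letters were searched in the promoters, had 3.31, 2.01, 2.86 and 3.44 and 12.4, 13.6, 16.2 and 11.9, with groups that overlapped. Myc, with 18.8, 5.67, 23.4 and 41.3, and Pprc1, a coactivator related to Ppargc1a, with 7.68, 4.36, 14.0 and 10.0, had both ATO sarcomas below both PBS sarcomas and log2 fold changes of -1.20 and -0.76. Esrra, Esrrg, Myc, Pprc1, Tfb2m, Nrf1, Gabpa and Slc25a4 were chosen after their values were seen.

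**Figure D5:**
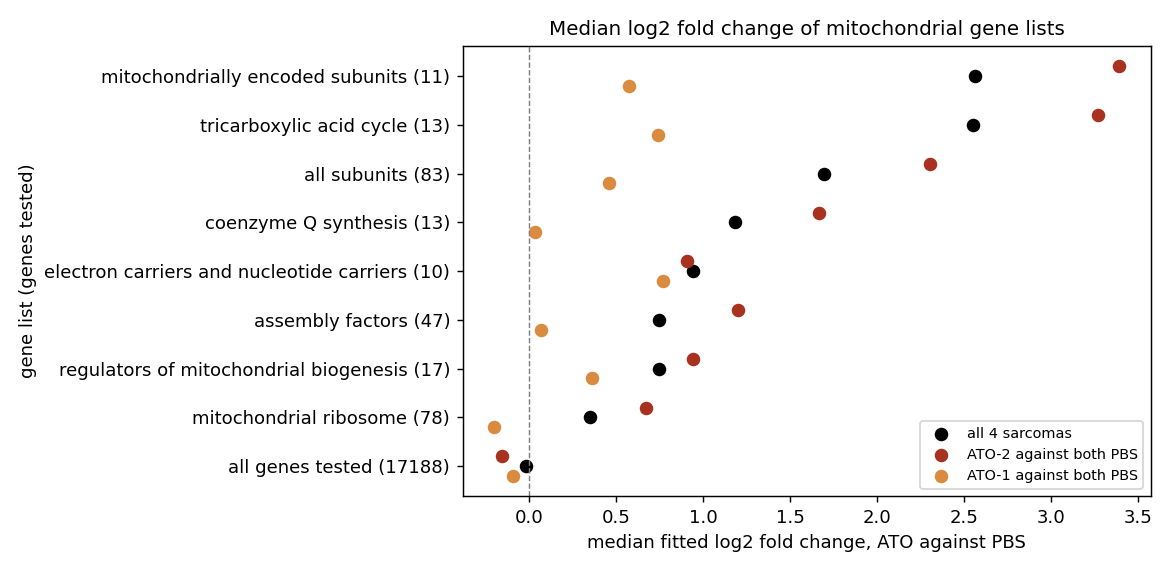
Median fitted log2 fold change (edgeR, ATO against PBS, horizontal axis) of the subunit genes and of other mitochondrial gene lists (vertical axis, number of genes tested in parentheses), with all 4 sarcomas (black), ATO-2 against both PBS sarcomas (red) and ATO-1 against both PBS sarcomas (orange). The subunit genes lie at 1.70, 2.30 and 0.46.

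Markers of fat were highest in ATO-2, with the exception of Dio2 (0.46, 3.76, 32.7 and 0.28), which was highest in PBS-1, whereas the skeletal muscle list described above was highest in ATO-1. In the brown fat list 4 of the 5 tested genes (Cidea, Elovl3, Cox7a1, Cox8b) had both ATO above both PBS sarcomas in CPM, beside 19.7% of all genes tested, and Dio2 did not. Ucp1, the uncoupling protein that defines brown fat, was not tested because its counts were high in 1 library only. Ucp1 had FPKM of 0.03, 1486, 0.07 and 0.10 and Cidea, a lipid droplet protein of brown fat, had 1.19, 547, 0 and 0. The summed FPKM of the 6 genes was 65.1 in ATO-1, 3016 in ATO-2, 34.6 in PBS-1 and 1.73 in PBS-2, and Cidea and Elovl3 were listed at 0 in both PBS sarcomas. In ATO-1, where the median subunit gene was 1.37 times the PBS mean, Ucp1 and Dio2 were within or below the range of the PBS sarcomas, while Cox8b (50.7, 675, 0 and 0.31), Cox7a1 (12.4, 250.5, 1.82 and 1.04), Cidea and Elovl3 (0.31, 54.98, 0 and 0) were above both.

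In the white fat list 6 of 6 genes had both ATO above both PBS sarcomas in CPM, beside 19.7% of all genes tested. Their summed FPKM was 232.9 in ATO-1, 1384 in ATO-2, 12.7 in PBS-1 and 67.0 in PBS-2. Adipoq, the adipokine gene of mature fat cells, had 38.9, 191, 0.08 and 0.08, and Lep was listed at 0 in both PBS sarcomas. The slow and cardiac muscle list was likewise highest in ATO-2, with summed FPKM of 25.2, 90.3, 2.38 and 14.1 in the order above. The culture protocol in the labels was given for all 4 samples alike, and whether any of them was cultured in that mixture was not tested. The part of brown fat, white fat and muscle tissue in the level of the subunit genes was not tested, and with 2 sarcomas per group the tissue content of a sarcoma and its treatment cannot be told apart.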

How the data were processed

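RNA-seq of 4 sarcomas was analysed, 2 labelled ATO and 2 labelled PBS. The authors trimmed reads with cutadapt 1.9.1, aligned them with HISAT2 2.0.1 and counted them per gene with HTSeq, and deposited raw counts with no normalization. The authors also deposited FPKM, which equals the count divided by exonic gene size and total count. Whether counting used strand, and how reads with several alignments were treated, is not given in the sources used here. The methods name GRCm38, but only 1472 of 52073 shared genes have their GENCODE M21 position in the table, so gene positions were taken from GENCODE M21 by identifier, for 85 of 85 members. Genes without a symbol, 2639 in all, took no more than 0.171% of any library's counts and stayed in the test.

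The test on counts was the quasi-likelihood F-test of edgeR 4.0.16 (R 4.3.3), after filterByExpr and TMM scaling and with a trended dispersion, with Benjamini-Hochberg adjustment over all 17188 genes tested and a two-sided threshold of 0.05. CPM was scaled with TMM factors of 1.01, 0.822, 1.09 and 1.11 for ATO-1, ATO-2, PBS-1 and PBS-2. The biological coefficient of variation was 62.5%. The scripts were tested on simulated data. A gene at 0 counts may have had up to 3 counts, or 0.165 to 0.197 CPM by library, for counting error only. Log2 ratios of isoform pairs used FPKM + 0.01.

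Values by library were given for isoform genes, core genes of complex I, the Sdh genes, the highest mean FPKM and the highest and lowest fold changes in each complex, and members with an unadjusted p under 0.05. Of each other pathway list the gene with the largest fold change was named. The values of 1 tested member, which enters the counts and medians, are not reported here. The members and lists were chosen with earlier results of these data known. Alternatives were DESeq2 1.42.0, its size factors, total counts, other filters, limma 3.58.1 on log2 FPKM, no mitochondrial genes, a replicate block and each sarcoma left out. The labels do not say that equal numbers mark shared mice, so the numbers were not taken as pairs. The deviations of same-numbered sarcomas had a correlation of 5.04e-05 over genes, which with 2 sarcomas per group cannot decide whether numbers link mice. Other computations and figures used Python 3.11.15, numpy 2.4.6, pandas 2.3.3 and matplotlib 3.10.9.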

Additional observations from a re-analysis of the deposited data

How the results depend on the processing

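With 2 sarcomas per group and a biological coefficient of variation of 62.5%, single genes are imprecise at any depth used here, and all values below are on the log2 scale unless they are counts. The count of all genes called was 753 with DESeq2 and 541 in edgeR without a filter on low counts, beside 0, and each of these called 1 subunit gene (Cox6a2). Other settings called 0 subunit genes. The median of the subunit genes stayed between 0.46 and 2.30 over all settings. With each sarcoma left out in turn the medians ranged from 0.46 to 2.30 for all subunit genes, 0.58 to 2.31 for complex I, 0.48 to 2.67 for complex II, 0.53 to 2.88 for complex III, 0.40 to 2.52 for complex IV and 0.36 to 1.95 for complex V, the lowest always without ATO-2. The number with a higher fitted level ranged from 72 to 84. Counts of genes with ATO below both PBS sarcomas, an alternative chosen after seeing the data, were 1 for ATO-2 alone and 6 for ATO-1 alone.

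Fitted directions turned in 11 of 53 named genes. Atp5g1 was -0.21 with total counts, -0.0195 without a filter, -0.30 (pseudocount 1) and -0.36 (pseudocount 0.1) in limma, and -0.0857 with the replicate block. Atp5g2 was -0.15 with total counts and in both limma fits. Cox7a2l was -0.0647 with total counts and -0.0724 and -0.0731 in limma. With each sarcoma left out, Atp5g1 ranged from -0.62 (without ATO-1) to 0.44. The lowest value came without ATO-2 in Atp5g2 (-0.14 to 0.36), Cox7a2l (-0.0774 to 0.47), Cox6a1 (-0.41 to 2.58), Cox7a2 (-0.0816 to 2.23), Cox8a (-0.22 to 2.52), Ndufa7 (-0.15 to 1.10), Ndufa8 (-0.25 to 1.58) and Ndufs8 (-0.44 to 1.95). The highest came without PBS-2 in Cox4i2 (-1.50 to 1.08) and Ndufa4l2 (-2.50 to 0.70). The cause of these turns was not tested. Since the labels do not say that equal numbers mark shared mice, the replicate block is only an alternative. It called 0 genes, gave a median of 1.41 and 80 of 83 higher for the subunit genes, and left 7 of 83 at an unadjusted p under 0.05 in place of 18. The share of all genes under that p in the block fit is not given here.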

Other observations

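Cox7a1 and Cox8b, isoform genes of complex IV that are used in muscle and brown fat, were left out of the members by name. Both were highest in ATO-2, as their general partners Cox7a2 and Cox8a were, unlike Cox6a2. In both isoform genes ATO-1 was second, whereas in FPKM ATO-1 was lowest in Cox7a2 and below PBS-1 in Cox8a. Cox7a1 had FPKM of 12.4 in ATO-1, 250.5 in ATO-2, 1.82 in PBS-1 and 1.04 in PBS-2. Of its summed FPKM with Cox7a2 it made up 23.2% in ATO-1, 59.9% in ATO-2, 3.41% in PBS-1 and 2.35% in PBS-2. Cox8b had 50.7 in ATO-1 and 674.8 in ATO-2, was listed at 0 in PBS-1 and had 0.31 in PBS-2. It made up 33.0% of its summed FPKM with Cox8a in ATO-1 and 54.3% in ATO-2. In ATO-2 both isoform genes were thus above their general partners, while Cox6a2 made up 2.28% of its pair there.

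The 14 pseudogene entries of subunit genes held few reads, between 0.214% and 0.260% of the counts of the 85 genes in a library, with Cox5b-ps the highest at 378 counts in ATO-2. In GENCODE M21 28 of the 85 genes share exon bases with a gene on the opposite strand, and the counting is not stated to use strand. The pairs include Atp5j with Gabpa (397 shared bases) and Ndufb5 with Mrpl47 (616), of which Mrpl47 had fewer counts than Ndufb5 in each library. Shmt2, which shares 32 bases with Ndufa4l2, had 964, 411, 1214 and 1264 counts, beside 99, 132, 93 and 897 for Ndufa4l2. Cpsf2, which shares 147 bases with Ndufb1, had 891, 620, 1685 and 967, beside 456, 666, 449 and 294 for Ndufb1. The part of opposite-strand reads in the subunit counts was not tested.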
